A study of Mus musculus with 18 samples.

Results

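The 42 genes described here encode the proteins that license replication origins and run the DNA replication fork, chosen by symbol and found in the count tables by their Entrez numbers. They are 42 of the 28096 genes in each table, and all 42 were among the 14161 genes with enough reads to be tested, with counts between 35 and 8251 per library. Licensing is the loading of the MCM helicase onto DNA by the origin recognition complex (ORC) with CDC6 and CDT1, and geminin (*Gmnn*) blocks it outside G1 phase. CDC45 and the GINS complex then switch the helicase on, polymerase alpha with primase starts each strand, polymerases delta and epsilon extend it on the PCNA clamp, and FEN1 and DNA ligase 1 join the Okazaki fragments. Resting B cells lie outside the cell cycle in G0, and activated B cells refill this machinery before their first S phase.

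Splenic B cells of C57BL/6 N mice at least 8 weeks old were either WT or *Ubqln1*-/-, and were left resting or stimulated for 4 hr with F(ab)2 fragments of anti-IgM at 10 μg/mL, which crosslink the B cell receptor, or with 20 μg/mL LPS from K12 *E. coli*, a Toll-like receptor 4 ligand. The *Ubqln1*-/- mice came from ES cells in which exon 2 of *Ubqln1*, the gene of the protein chaperone ubiquilin-1, had been deleted by transient Cre, so the deletion was not limited to B cells. There were 3 libraries for each of the 6 groups, 18 in all, and each was made from triplicate wells pooled before RNA purification. The 3 libraries of a group are described as biological replicates from independent experiments. Whether each came from its own mouse is not given in the sources used here, and a p-value measures the spread between these libraries.

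The libraries held between 15368941 and 41072854 counts. *Ubqln1* stood at 237, 236 and 229.5 CPM (counts scaled to library size) in resting WT cells and at 92.7, 91.4 and 106 CPM in resting *Ubqln1*-/- cells, and reads from its other exons remain possible. The 6 B cell markers summed to 6911 to 8366 CPM in the 6 resting libraries, to 2196 to 2829 CPM with anti-IgM and to 5463 to 6577 CPM with LPS. The 5 T cell markers found in the tables summed to at most 1.17 CPM, the 4 NK cell markers to at most 1.42 CPM and the 5 erythroid markers to at most 4.56 CPM, while the 6 myeloid markers summed to 10.6 to 23.4 CPM. In these bulk libraries a smaller share of cells with a transcript and less of that transcript per cell cannot be told apart, and every level is relative to the RNA of its own library.

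Promoter windows reaching from 250 bases before to 50 bases after a transcript start were available for 34 of the 42 genes (42 windows, RefSeq, GRCm38.p6). They were searched on both strands for exact matches to 4 spellings of the E2F core, TTTCCCGC, TTTCGCGC, TTTGCCGC and TTTGGCGC, the letters read by the E2F factors that govern many S phase genes. A match was present in 15 of the 42 windows (35.7%), against 2.26% of all 32851 mouse windows of the same length and 3.92% of the windows of the tested genes. The CCAAT box was in 57.1% of the members' windows and 37.4% of all windows, and the E-box CACGTG in 14.3% (6 windows) and 7.15%. In the windows of the tested genes the CCAAT box was in 37.8% and the E-box in 10.0%. The stretches around the E2F cores that lie before the start are printed for the 9 genes that have one, because their transcripts went different ways in the comparisons that follow. Capitals mark the core, and where 2 spellings on opposite strands overlap, they form 1 run of capitals. The start is that of the window's own transcript. In *Orc1*, *Cdc6*, *Mcm7* and *Pola1* that start lies inside the span of the gene, and so does the printed stretch.
*Orc1* (chr4:108579402-108579453, plus strand): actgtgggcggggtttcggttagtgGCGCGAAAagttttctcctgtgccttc
*Orc3* (chr4:34614951-34615008, minus strand): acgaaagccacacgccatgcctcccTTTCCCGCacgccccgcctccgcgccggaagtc
*Cdc6* (chr11:98907988-98908045, plus strand): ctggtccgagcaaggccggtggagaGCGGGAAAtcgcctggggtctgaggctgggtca
*Mcm5* (chr8:75109331-75109392, plus strand): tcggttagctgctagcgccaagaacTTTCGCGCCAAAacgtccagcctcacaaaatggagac
*Mcm6* (chr1:128359720-128359840, minus strand): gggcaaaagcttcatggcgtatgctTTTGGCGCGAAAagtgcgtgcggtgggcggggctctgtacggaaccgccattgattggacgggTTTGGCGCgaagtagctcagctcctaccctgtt
*Mcm7* (chr5:138172016-138172073, minus strand): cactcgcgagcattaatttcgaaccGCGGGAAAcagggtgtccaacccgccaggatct
*Gins3* (chr8:95633493-95633550, plus strand): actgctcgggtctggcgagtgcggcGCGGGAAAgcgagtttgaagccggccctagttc
*Pola1* (chrX:93632261-93632318, minus strand): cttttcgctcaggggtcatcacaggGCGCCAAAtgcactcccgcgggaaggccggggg
*Rfc3* (chr5:151651209-151651243, minus strand): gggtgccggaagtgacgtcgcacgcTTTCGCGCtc

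**Figure D1:**
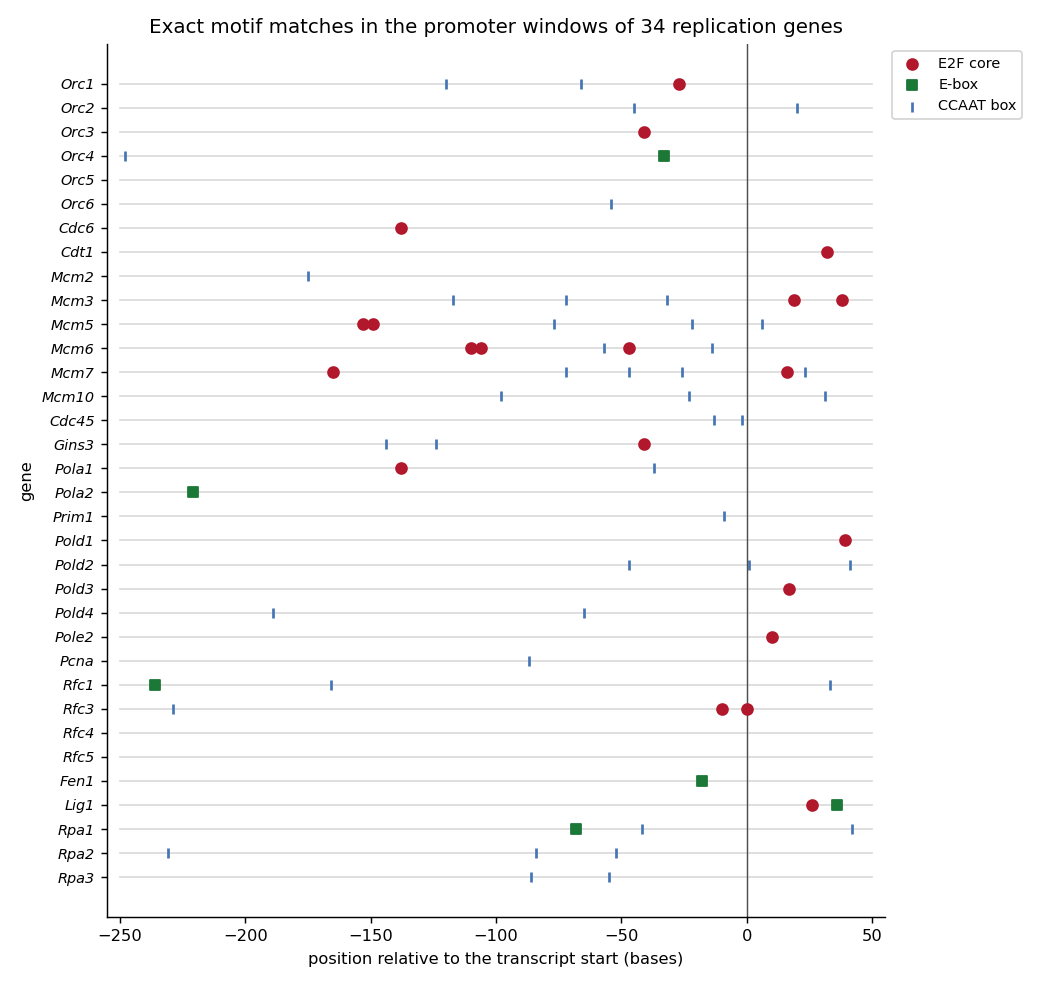
Positions of exact matches to the E2F core (red circles), the E-box (green squares) and the CCAAT box (blue ticks) in the promoter windows of 34 genes. The horizontal axis is the distance in bases of the first matched base from the transcript start of its window, which can lie inside the span of the gene. *Mcm5*, *Mcm6*, *Mcm7*, *Cdc6* and *Pola1* have an E2F core more than 100 bases before it, and those of *Mcm3*, *Cdt1*, *Pold1*, *Pold3*, *Pole2* and *Lig1* lie after it.

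In resting WT cells the 42 transcripts spanned from 0.543 RPKM (reads scaled to transcript length and library size) for *Cdc6* to 101 ± 4.35 RPKM for *Pold4*. After *Pold4*, the smallest subunit of polymerase delta, the highest were *Cdt1* at 63.5 ± 9.37 RPKM, *Rpa1* at 62.9 ± 3.87 RPKM, *Mcm6* at 56.2 ± 7.11 RPKM and *Pold1* at 53.7 ± 6.18 RPKM. Errors beside levels in RPKM or CPM are SDs (n = 3) throughout, and errors beside log2 fold changes are standard errors of the fit. *Cdt1*, *Rpa1*, *Mcm6* and *Pold1* overlapped with their neighbours in this order, whereas *Pold4* lay above all other members in every resting WT library. The lowest after *Cdc6* were *Orc1* at 0.783 ± 0.0927 RPKM and *Mcm10* at 1.57 ± 0.285 RPKM, and the GINS subunits *Gins1*, *Gins2* and *Gins3* followed at 3.30 to 4.28 RPKM. The remaining GINS subunit, *Gins4*, stood well above them at 24.8 ± 1.22 RPKM.

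Stimulation moved these genes in both directions. With anti-IgM, 13 of 42 rose and 14 fell in WT cells at an adjusted p under 0.05 (edgeR's quasi-likelihood test, Benjamini-Hochberg adjustment over all 14161 genes), where 32.4% of all tested genes rose and 32.2% fell. In *Ubqln1*-/- cells 13 rose and 10 fell, against 32.9% and 32.4% of all genes. With LPS, 15 rose and 8 fell in WT cells, against 31.2% and 30.1% of all genes, and 17 rose and 9 fell in *Ubqln1*-/- cells, against 30.6% and 30.2%. As shares of the 42 genes, the risers made up 31.0%, 31.0%, 35.7% and 40.5% and the fallers 33.3%, 23.8%, 19.0% and 21.4% in these 4 comparisons. Their difference from the shares of all genes was not tested. The median log2 fold change over the 42 genes was -0.0045 (WT) and 0.0125 (*Ubqln1*-/-) with anti-IgM and -0.0134 and 0.0876 with LPS, beside medians over all tested genes of -0.01, -0.02, -0.01 and -0.02.

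**Figure D2:**
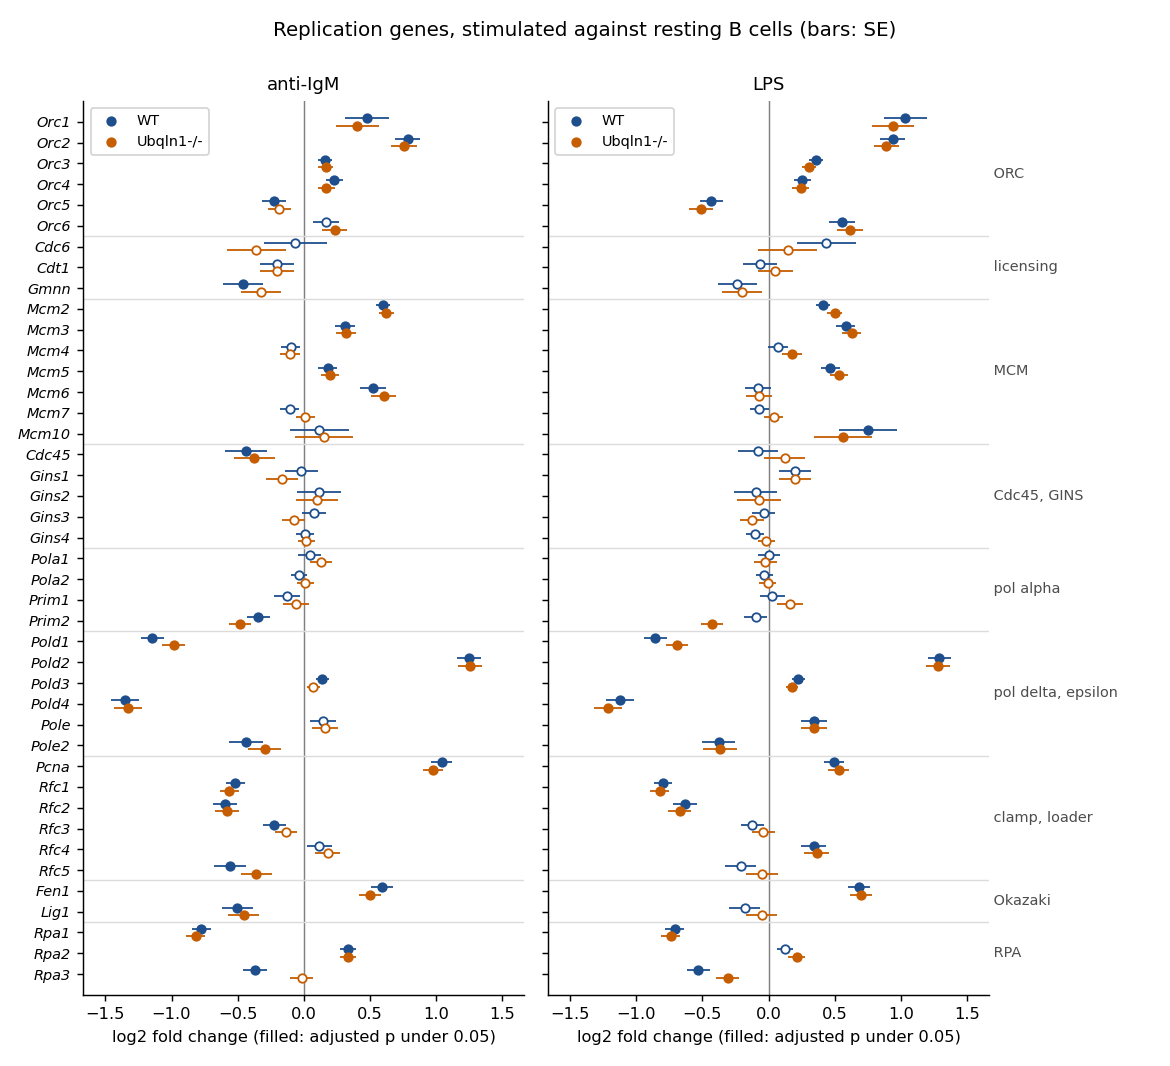
Log2 fold change of each of the 42 genes in stimulated against resting cells, with anti-IgM on the left and LPS on the right. Blue points are WT and orange points *Ubqln1*-/- cells, bars are standard errors, and filled points have an adjusted p under 0.05. *Pold2* stands farthest to the right at 1.25 to 1.29, *Pold4* and *Pold1* stand to the left of zero in all 4 comparisons, and the GINS and polymerase alpha genes lie around zero except *Prim2*.

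Across the 4 comparisons, which share the resting libraries within a genotype, 10 genes were called higher each time (*Orc1*, *Orc2*, *Orc3*, *Orc4*, *Mcm2*, *Mcm3*, *Mcm5*, *Pold2*, *Pcna* and *Fen1*) and 6 lower each time (*Pold1*, *Pold4*, *Pole2*, *Rfc1*, *Rfc2* and *Rpa1*). None was called higher in one comparison and lower in another. The 10 called in none were *Cdc6*, *Cdt1*, *Mcm7*, *Gins1*, *Gins2*, *Gins3*, *Gins4*, *Pola1*, *Pola2* and *Prim1*. This fit has no term for the replicate number, and with the number as a block *Cdt1* was called lower with anti-IgM in both genotypes. Most changes were small: beyond 2-fold and past the same adjusted p were 2 risers and 2 fallers with anti-IgM in WT cells, 1 and 1 in *Ubqln1*-/- cells, 2 and 1 with LPS in WT cells and 1 and 1 in *Ubqln1*-/- cells. Among all genes 20.6%, 20.3%, 15.8% and 15.9% passed that rule. At the thresholds of the study's own analysis, a log2 change over 2 and an adjusted p under 0.001, none of the 42 passed in any of the 4, where 3.76%, 3.64%, 1.80% and 1.74% of all genes did.

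The E2F core was found among genes of every direction. With anti-IgM in WT cells it was present in 6 of the 13 risers that have a window, 4 of 11 fallers and 5 of 10 genes without a call. With LPS the counts were 5 of 14, 2 of 7 and 8 of 13.

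Of the 6 ORC genes, *Orc1*, *Orc2*, *Orc3* and *Orc4* rose in all 4 comparisons, *Orc6* rose in 3 of them, and *Orc5* fell in 3. *Orc2*, a core subunit of the ring that marks origins, had 13.8, 16.2 and 16.5 RPKM in the 3 resting WT libraries, 24.4, 28.7 and 27.4 RPKM with anti-IgM and 30.03, 33.1 and 26.3 RPKM with LPS. The *Ubqln1*-/- libraries had 15.1, 16.5 and 14.9 RPKM at rest, 25.2, 27.6 and 25.9 RPKM with anti-IgM and 29.03, 31.4 and 25.8 RPKM with LPS. Every stimulated library of either genotype lay above every resting one. The rise was 0.79 ± 0.10 on the log2 scale with anti-IgM in WT cells (1.72-fold, adjusted p = 1.71e-06) and 0.94 ± 0.09 with LPS (adjusted p = 3.51e-07), and 0.76 ± 0.09 and 0.89 ± 0.10 in *Ubqln1*-/- cells.

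*Orc1*, the large ATPase subunit of the complex, was the scarcest ORC transcript. It stood at 0.870, 0.685 and 0.793 RPKM in resting WT libraries, 1.01, 1.12 and 1.13 RPKM with anti-IgM and 1.61, 1.48 and 1.70 RPKM with LPS. In *Ubqln1*-/- libraries the values were 0.880, 0.935 and 0.850 RPKM at rest, 0.961, 1.40 and 1.17 RPKM with anti-IgM and 1.81, 1.91 and 1.38 RPKM with LPS. The stimulated libraries exceeded the resting ones in both genotypes, and in *Ubqln1*-/- cells the anti-IgM and LPS libraries overlapped. LPS gave the larger rise, 1.03 ± 0.16 in WT cells (2.05-fold, adjusted p = 3.26e-05) and 0.94 ± 0.16 in *Ubqln1*-/- cells (adjusted p = 8.38e-05), against 0.48 ± 0.17 (adjusted p = 0.0187) and 0.41 ± 0.16 (adjusted p = 0.035) with anti-IgM. The anti-IgM calls were the less firm: the WT call was lost without resting replicate 2 (0.39), and the *Ubqln1*-/- call was lost with limma (0.39), with DESeq2 (0.41), within the samples compared (0.41) and without resting replicate 1 (0.41), resting replicate 3 (0.37) or anti-IgM replicate 2 (0.26). The span of *Orc1* shares 3632 bases with *Prpf38a*, which moved from 34.2 ± 4.05 CPM at rest to 45.4 ± 0.151 CPM with anti-IgM and 48.3 ± 0.606 CPM with LPS in WT cells, and since the library kit does not mark strand, reads in those bases cannot be told apart by strand.

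*Orc6*, the subunit outside the ring, had 8.70, 10.4 and 10.2 RPKM at rest, 10.03, 10.8 and 12.3 RPKM with anti-IgM and 13.9, 15.3 and 13.9 RPKM with LPS in WT cells. With LPS all 3 libraries exceeded the resting ones, by 0.55 ± 0.10 on the log2 scale (adjusted p = 0.000102), and *Ubqln1*-/- cells gave 0.62 ± 0.10 from 9.02, 10.5 and 8.83 to 14.5, 15.3 and 13.7 RPKM. With anti-IgM it was called only in *Ubqln1*-/- cells, at 0.23 ± 0.10 (adjusted p = 0.0448) beside 0.17 ± 0.10 (adjusted p = 0.142) in WT cells, and the responses of the genotypes did not differ at an adjusted p under 0.05. *Orc3* and *Orc4* rose by 0.16 to 0.36 in the 4 comparisons. *Orc5* fell by 0.43 ± 0.09 with LPS in WT cells and 0.51 ± 0.09 in *Ubqln1*-/- cells, and by 0.22 ± 0.09 with anti-IgM in WT cells (adjusted p = 0.0374). In *Ubqln1*-/- cells *Orc5* was at -0.18 ± 0.09 with anti-IgM (adjusted p = 0.0747, and 0.0498 with the replicate number as a block). Several of these smaller calls depended on single libraries. The call of *Orc6* with anti-IgM in *Ubqln1*-/- cells was lost without resting replicate 1 (0.21), resting replicate 3 (0.18), anti-IgM replicate 2 (0.18) or anti-IgM replicate 3 (0.26) and with at least 10 counts in every sample (0.22), and that of *Orc4* without resting replicate 1 (0.14) or anti-IgM replicate 2 (0.12). The WT anti-IgM call of *Orc5* was lost without resting replicate 2 (-0.19), resting replicate 3 (-0.19), anti-IgM replicate 1 (-0.20) or anti-IgM replicate 2 (-0.18), and within the samples compared *Orc5* (-0.23) and *Orc3* (0.16) lost it too.

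The loaders and their inhibitor gave few calls. *Cdc6*, the ATPase that joins ORC to load MCM, had 0.476, 0.497 and 0.657 RPKM in resting WT cells, 0.399, 0.500 and 0.679 RPKM with anti-IgM and 0.625, 0.751 and 0.838 RPKM with LPS, and 0.736, 0.857 and 0.606 RPKM at rest, 0.468, 0.700 and 0.544 RPKM with anti-IgM and 0.809, 0.975 and 0.630 RPKM with LPS in *Ubqln1*-/- cells. The groups overlapped, and its log2 differences of -0.06 ± 0.24, -0.36 ± 0.22, 0.44 ± 0.23 and 0.15 ± 0.22 (WT and *Ubqln1*-/- with anti-IgM, then with LPS) did not pass the test. With 35 to 139 reads per library it had the widest intervals of the 42 genes between genotypes.

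*Cdt1*, the partner that brings MCM to the origin, was second in level. It stood at 55.99, 60.6 and 74.02 RPKM at rest, 52.4, 52.3 and 61.3 RPKM with anti-IgM and 55.4, 55.97 and 71.05 RPKM with LPS in WT cells, and at 53.7, 55.3 and 67.6 RPKM at rest, 49.5, 48.4 and 55.7 RPKM with anti-IgM and 56.8, 54.9 and 71.4 RPKM with LPS in *Ubqln1*-/- cells. Replicate 3 was the highest of its group in all 6 groups. The log2 differences with anti-IgM were -0.20 ± 0.13 in WT cells (adjusted p = 0.188) and -0.20 ± 0.13 in *Ubqln1*-/- cells (adjusted p = 0.185), and with the replicate number as a block both became calls (adjusted p = 0.00121 and 0.00122).

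*Gmnn*, which encodes the CDT1 inhibitor geminin, went from 10.5, 11.3 and 12.9 RPKM at rest to 7.11, 7.68 and 10.7 RPKM with anti-IgM and 9.19, 9.21 and 11.2 RPKM with LPS in WT cells. The anti-IgM difference of -0.46 ± 0.15 passed the test (adjusted p = 0.0137), although the groups overlapped, and the call was lost without resting replicate 3 (-0.37), anti-IgM replicate 1 (-0.34) or anti-IgM replicate 2 (-0.38). *Ubqln1*-/- cells had 12.02, 11.7 and 11.4 RPKM at rest, 8.66, 10.4 and 8.92 RPKM with anti-IgM and 8.27, 11.3 and 10.8 RPKM with LPS. There the anti-IgM difference was -0.32 ± 0.15 (adjusted p = 0.0663), which became a call with the replicate number as a block (adjusted p = 0.0246), within the samples compared (-0.31) and without anti-IgM replicate 2 (-0.40).

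The 6 subunits of the MCM ring, which work together as 1 helicase, did not move together at the RNA level. *Mcm2* and *Mcm6* rose most with anti-IgM, *Mcm3* and *Mcm5* rose most with LPS, and *Mcm7* was called in none of the comparisons. *Mcm2* had 25.7, 26.3 and 28.4 RPKM in resting WT cells, 40.6, 39.7 and 41.6 RPKM with anti-IgM and 36.97, 36.5 and 33.4 RPKM with LPS. The *Ubqln1*-/- values were 26.2, 26.7 and 26.7 RPKM at rest, 41.8, 41.1 and 39.9 RPKM with anti-IgM and 37.3, 39.8 and 35.5 RPKM with LPS. Every stimulated library exceeded every resting one, by 0.60 ± 0.05 (adjusted p = 7.09e-08) and 0.41 ± 0.05 (adjusted p = 6.88e-06) on the log2 scale in WT cells and by 0.62 ± 0.05 and 0.50 ± 0.06 in *Ubqln1*-/- cells.

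*Mcm6* was called higher with anti-IgM and not with LPS. Its levels were 48.1, 61.4 and 59.1 RPKM at rest, 73.9, 84.5 and 83.7 RPKM with anti-IgM and 51.6, 54.6 and 53.6 RPKM with LPS in WT cells, and 51.5, 59.6 and 57.5 RPKM at rest, 74.9, 89.1 and 92.5 RPKM with anti-IgM and 50.9, 58.04 and 51.4 RPKM with LPS in *Ubqln1*-/- cells. The 6 anti-IgM libraries were the 6 highest of the 18, and the LPS libraries overlapped the resting ones in both genotypes. The change was 0.52 ± 0.10 in WT (1.44-fold, adjusted p = 0.000154) and 0.60 ± 0.10 in *Ubqln1*-/- cells (adjusted p = 3.58e-05) with anti-IgM, and -0.08 ± 0.10 (adjusted p = 0.501) and -0.07 ± 0.10 (adjusted p = 0.536) with LPS. Its promoter holds 3 E2F matches before the start, the most of the 34 genes. Those at -110 and -106 overlap on opposite strands and form 1 run.

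*Mcm3* and *Mcm5* rose in a graded order, from rest to anti-IgM to LPS. *Mcm3* had 32.98, 37.4 and 40.9 RPKM at rest, 42.98, 46.1 and 49.1 RPKM with anti-IgM and 53.7, 56.3 and 56.7 RPKM with LPS in WT cells, and 35.1, 37.8 and 37.3 RPKM at rest, 44.3, 46.9 and 46.2 RPKM with anti-IgM and 53.2, 60.8 and 56.3 RPKM with LPS in *Ubqln1*-/- cells. None of these groups overlapped within a genotype, and the rises were 0.31 ± 0.07 and 0.58 ± 0.07 in WT cells (adjusted p = 0.00127 and 3.52e-06) and 0.32 ± 0.07 and 0.63 ± 0.07 in *Ubqln1*-/- cells.

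*Mcm5* had 29.1, 31.6 and 35.5 RPKM at rest, 33.9, 35.3 and 39.9 RPKM with anti-IgM and 42.6, 44.9 and 45.7 RPKM with LPS in WT cells, and 31.96, 33.6 and 32.5 RPKM at rest, 38.1, 38.1 and 36.6 RPKM with anti-IgM and 46.1, 48.8 and 47.4 RPKM with LPS in *Ubqln1*-/- cells. With LPS the rise was 0.47 ± 0.07 (adjusted p = 1.84e-05) and 0.53 ± 0.07, with no overlap. With anti-IgM it was 0.18 ± 0.07 (adjusted p = 0.0305) and 0.20 ± 0.07 (adjusted p = 0.0168), the WT groups overlapped, and the WT call was lost within the samples compared (0.18) and without resting replicate 1 (0.11), resting replicate 2 (0.18) or anti-IgM replicate 3 (0.11).

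*Mcm7* also has an E2F core before the start of a window, inside the span of the gene. It kept to 17.5 to 21.5 RPKM in all 18 libraries, with log2 differences of -0.10 ± 0.07, 0.01 ± 0.07, -0.07 ± 0.07 and 0.04 ± 0.07 that did not pass the test. Its resting WT values were 20.1, 20.1 and 21.04 RPKM, beside 18.1, 19.6 and 19.2 RPKM with anti-IgM and 18.8, 20.03 and 19.5 RPKM with LPS, and the *Ubqln1*-/- values were 19.3, 19.1 and 17.5 RPKM at rest, 17.8, 19.96 and 18.8 RPKM with anti-IgM and 18.3, 21.5 and 17.7 RPKM with LPS. *Mcm4* had 23.96, 24.9 and 29.2 RPKM at rest, 22.8, 23.9 and 26.2 RPKM with anti-IgM and 26.2, 27.3 and 28.5 RPKM with LPS in WT cells and 24.6, 27.6 and 27.1 RPKM at rest, 24.2, 25.3 and 24.04 RPKM with anti-IgM and 28.6, 31.5 and 29.4 RPKM with LPS in *Ubqln1*-/- cells. Against rest it was called once, with LPS in *Ubqln1*-/- cells (0.18 ± 0.07, adjusted p = 0.0499). That call was lost with DESeq2 (0.17), with RLE normalization (0.17), with at least 10 counts in every sample (0.16) and without resting replicate 1 (0.13), resting replicate 3 (0.19), LPS replicate 2 (0.13) or LPS replicate 3 (0.19). *Mcm10*, which helps to start the helicase, rose with LPS by 0.75 ± 0.22 in WT cells (adjusted p = 0.00635) and 0.56 ± 0.22 in *Ubqln1*-/- cells (adjusted p = 0.0347), from 1.57 to 2.65 RPKM and from 1.65 to 2.43 RPKM. Its *Ubqln1*-/- call was lost without resting replicate 3 (0.34), LPS replicate 1 (0.58) or LPS replicate 2 (0.41).

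**Figure D3:**
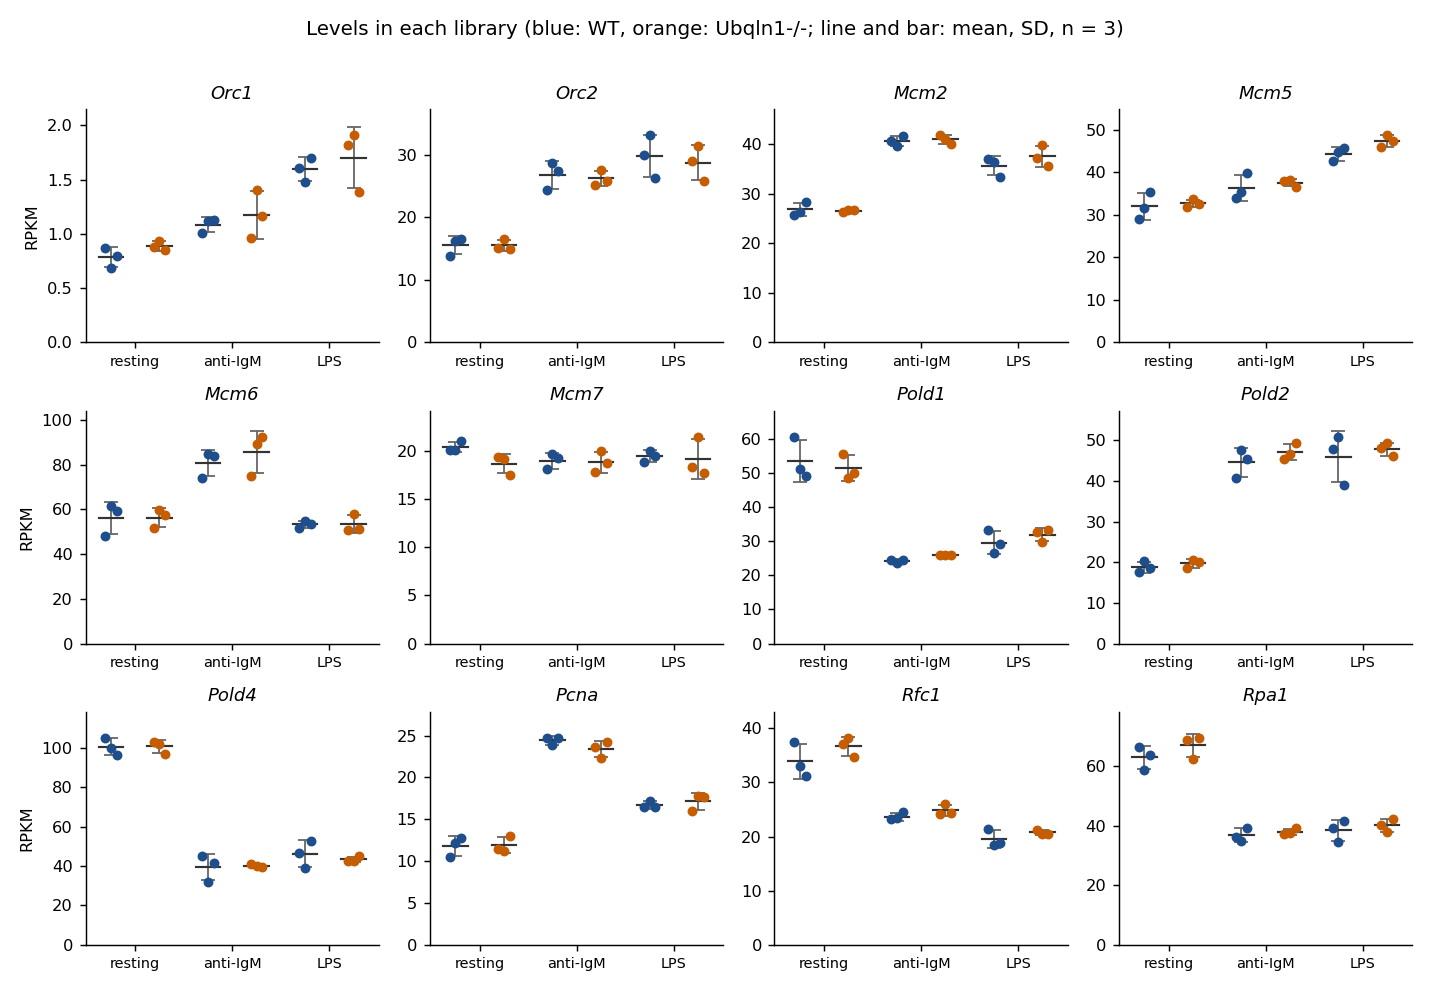
RPKM of 12 of the genes in each of the 18 libraries, with WT in blue and *Ubqln1*-/- in orange, a line at the mean and bars for the SD of 3 libraries. All axes start at 0. *Pold2* and *Pcna* are higher with both stimuli, *Pold1*, *Pold4*, *Rfc1* and *Rpa1* are lower, *Mcm6* is higher with anti-IgM and *Mcm7* stays between 17.5 and 21.5 RPKM.

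The genes that complete the active helicase gave few calls. Against rest, of *Cdc45* and the 4 GINS genes *Cdc45* alone was called, with anti-IgM, where it fell by 0.44 ± 0.16 on the log2 scale in WT cells (adjusted p = 0.023) and 0.38 ± 0.16 in *Ubqln1*-/- cells (adjusted p = 0.0428). Its mean went from 4.68 ± 0.803 to 3.48 ± 0.628 RPKM in WT cells, where the anti-IgM and resting libraries overlapped, and from 4.66 ± 0.425 to 3.59 ± 0.547 RPKM in *Ubqln1*-/- cells. The WT call was lost without resting replicate 3 (-0.29), anti-IgM replicate 1 (-0.35) or anti-IgM replicate 2 (-0.36) and within the samples compared (-0.44), and the *Ubqln1*-/- call without resting replicate 1 (-0.39), resting replicate 2 (-0.29), anti-IgM replicate 1 (-0.28) or anti-IgM replicate 3 (-0.32) and without a filter on low counts (-0.34). The GINS genes lay between -0.17 and 0.20 on the log2 scale in the 4 comparisons against rest, and none passed the test there. Polymerase alpha and primase behaved likewise: *Pola1*, *Pola2* and *Prim1* lay between -0.13 and 0.16, and the large primase subunit *Prim2* was the exception. It fell with anti-IgM by 0.34 ± 0.09 in WT cells (8.02, 7.66 and 8.41 to 6.82, 6.26 and 5.88 RPKM, adjusted p = 0.0021) and by 0.48 ± 0.08 in *Ubqln1*-/- cells (10.00, 9.89 and 9.31 to 7.13, 7.10 and 6.62 RPKM, adjusted p = 8.02e-05). With LPS *Prim2* was called in *Ubqln1*-/- cells at -0.43 ± 0.08 (adjusted p = 0.000342) and stood at -0.10 ± 0.08 in WT cells (adjusted p = 0.324), with 7.82, 6.88 and 7.82 RPKM in the WT and 7.64, 7.51 and 6.52 RPKM in the *Ubqln1*-/- libraries.

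The subunits of polymerase delta, which makes the lagging strand, included the largest rise and the largest fall of the 42 genes. *Pold2*, the regulatory B subunit, had 17.5, 20.2 and 18.5 RPKM in resting WT cells, 40.7, 47.5 and 45.4 RPKM with anti-IgM and 47.9, 50.9 and 38.98 RPKM with LPS. Libraries of *Ubqln1*-/- cells had 18.6, 20.5 and 19.98 RPKM at rest, 45.4, 46.7 and 49.2 RPKM with anti-IgM and 48.1, 49.3 and 46.1 RPKM with LPS. The rise was 1.25 ± 0.09 with anti-IgM (2.37-fold, adjusted p = 5.95e-09) and 1.29 ± 0.09 with LPS (2.45-fold, adjusted p = 8.3e-09) in WT cells, and 1.26 ± 0.09 and 1.28 ± 0.09 in *Ubqln1*-/- cells. Every stimulated library exceeded every resting one, and the anti-IgM and LPS libraries overlapped. The end of *Pold2* shares 69 bases with *Aebp1*, which had 8 to 126 reads per library beside 441 to 3225 for *Pold2*.

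*Pold1*, the catalytic subunit, went the other way. Its resting WT libraries had 60.8, 51.1 and 49.3 RPKM, those with anti-IgM 24.4, 23.7 and 24.6 RPKM and those with LPS 33.3, 26.5 and 29.2 RPKM, and the *Ubqln1*-/- values were 55.7, 48.6 and 50.1 RPKM at rest, 26.1, 26.1 and 25.9 RPKM with anti-IgM and 32.6, 29.7 and 33.3 RPKM with LPS. It fell by 1.15 ± 0.09 with anti-IgM in WT cells (2.21-fold, adjusted p = 9.08e-09) and by 0.86 ± 0.09 with LPS (adjusted p = 3.2e-07), and by 0.98 ± 0.09 and 0.69 ± 0.09 in *Ubqln1*-/- cells. As RPKM, the ratio of *Pold2* to *Pold1* (a pair picked after their values were seen, so described without a test) was 0.288, 0.396 and 0.375 in resting WT libraries, 1.67, 2.01 and 1.85 with anti-IgM and 1.44, 1.92 and 1.34 with LPS. In *Ubqln1*-/- cells it was 0.334, 0.423 and 0.399 at rest. Every stimulated library of either genotype thus held more *Pold2* than *Pold1* per length, and every resting library less.

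*Pold4*, the smallest subunit, was the most abundant of the 42 transcripts at rest and fell most. It had 105, 99.95 and 96.6 RPKM at rest, 44.9, 31.9 and 41.6 RPKM with anti-IgM and 46.7, 39.2 and 52.9 RPKM with LPS in WT cells, and 103, 102 and 97.2 RPKM at rest, 41.1, 39.9 and 39.5 RPKM with anti-IgM and 42.7, 42.7 and 45.1 RPKM with LPS in *Ubqln1*-/- cells. The fall was 1.35 ± 0.11 on the log2 scale with anti-IgM (2.55-fold, adjusted p = 1.56e-08) and 1.12 ± 0.11 with LPS (2.18-fold, adjusted p = 1.74e-07) in WT cells, and 1.33 ± 0.11 and 1.21 ± 0.11 in *Ubqln1*-/- cells. *Pold3*, the remaining subunit, varied least between replicates of all 42 genes and rose slightly, by 0.14 ± 0.05 with anti-IgM (adjusted p = 0.0169) and 0.23 ± 0.05 with LPS (adjusted p = 0.000624) in WT cells. In *Ubqln1*-/- cells it rose with LPS (0.18 ± 0.05) and was at 0.07 ± 0.05 with anti-IgM (adjusted p = 0.199). Within the samples compared its WT anti-IgM call was lost (0.14).

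The subunits of polymerase epsilon, which makes the leading strand, diverged too. Its catalytic subunit *Pole* rose with LPS by 0.34 ± 0.10 in WT cells (adjusted p = 0.00627) and 0.34 ± 0.10 in *Ubqln1*-/- cells (adjusted p = 0.00661), and its difference with anti-IgM did not pass the test. The accessory subunit *Pole2* fell in all 4 comparisons, by 0.30 to 0.44 on the log2 scale, from 7.44 ± 0.973 RPKM at rest to 5.48 ± 0.580 RPKM with anti-IgM and 5.72 ± 0.345 RPKM with LPS in WT cells. The call of *Pole2* with anti-IgM in *Ubqln1*-/- cells was lost without any 1 of resting replicates 1 (-0.20) and 2 (-0.22) and anti-IgM replicates 1 (-0.31), 2 (-0.27) and 3 (-0.27), with limma (-0.28), without a filter on low counts (-0.26) and within the samples compared (-0.29). Its LPS call was lost without WT resting replicate 1 (-0.29) or LPS replicate 2 (-0.33), and without *Ubqln1*-/- resting replicates 1 (-0.28) or 2 (-0.29) or LPS replicates 2 (-0.36) or 3 (-0.34).

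*Pcna*, the sliding clamp and a usual marker of proliferating cells, rose with both stimuli and more with anti-IgM. It had 10.5, 12.2 and 12.8 RPKM in resting WT cells, 24.7, 23.8 and 24.7 RPKM with anti-IgM and 16.5, 17.2 and 16.4 RPKM with LPS. The *Ubqln1*-/- libraries had 11.4, 11.2 and 12.99 RPKM at rest, 23.6, 22.3 and 24.2 RPKM with anti-IgM and 15.99, 17.7 and 17.7 RPKM with LPS. The 3 conditions did not overlap in either genotype. The rise was 1.04 ± 0.08 with anti-IgM (2.06-fold, adjusted p = 9.08e-09) and 0.49 ± 0.08 with LPS (1.41-fold, adjusted p = 4.16e-05) in WT cells, and 0.98 ± 0.08 and 0.53 ± 0.08 in *Ubqln1*-/- cells. *Pcna* has processed copies elsewhere in the genome, and how reads that match several places were counted is not given.

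The loader that opens the clamp, replication factor C, was led by falls of *Rfc1* and *Rfc2*. *Rfc1*, the large subunit, had 37.5, 33.1 and 31.2 RPKM at rest, 23.2, 23.3 and 24.5 RPKM with anti-IgM and 21.5, 18.4 and 18.7 RPKM with LPS in WT cells, and 37.1, 38.2 and 34.8 RPKM at rest, 24.2, 25.9 and 24.3 RPKM with anti-IgM and 21.2, 20.5 and 20.5 RPKM with LPS in *Ubqln1*-/- cells. It fell by 0.52 ± 0.07 and 0.80 ± 0.07 in WT cells (adjusted p = 5.92e-06 and 8.61e-08) and by 0.56 ± 0.07 and 0.82 ± 0.07 in *Ubqln1*-/- cells. *Rfc2* stood at 46.8, 45.7 and 47.02 RPKM at rest, 32.98, 26.97 and 32.5 RPKM with anti-IgM and 32.3, 25.5 and 32.3 RPKM with LPS in WT cells, and at 50.4, 48.05 and 48.2 RPKM at rest, 34.04, 32.9 and 30.99 RPKM with anti-IgM and 32.8, 29.04 and 30.3 RPKM with LPS in *Ubqln1*-/- cells. No stimulated library reached the resting range of either gene, and the fall of *Rfc2* was 0.58 to 0.67 in the 4 comparisons.

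The smaller subunits differed from one another. *Rfc5* fell with anti-IgM by 0.56 ± 0.12 in WT cells and 0.36 ± 0.12 in *Ubqln1*-/- cells, and was at -0.21 ± 0.12 and -0.05 ± 0.12 with LPS without a call. *Rfc3* fell with anti-IgM in WT cells (-0.22 ± 0.09, adjusted p = 0.0316) and was not called elsewhere. *Rfc4* rose with LPS by 0.34 ± 0.09 and 0.37 ± 0.09 and shares 185 bases with the far more abundant *Eif4a2*, at 374 ± 24.6 CPM in resting WT cells. The *Rfc3* call was lost without resting replicate 1 (-0.21), 2 (-0.22) or 3 (-0.23) or anti-IgM replicate 1 (-0.23) or 2 (-0.14), within the samples compared (-0.22) and without a filter on low counts (-0.21), and the *Ubqln1*-/- call of *Rfc5* without resting replicate 1 (-0.28) or anti-IgM replicates 2 (-0.33) or 3 (-0.31).

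The genes of Okazaki fragment maturation split. *Fen1*, the flap nuclease, had 21.4, 25.97 and 26.7 RPKM at rest, 35.2, 36.9 and 39.99 RPKM with anti-IgM and 38.9, 40.7 and 39.6 RPKM with LPS in WT cells, and 24.4, 25.98 and 28.4 RPKM at rest, 36.4, 36.3 and 38.6 RPKM with anti-IgM and 38.9, 45.5 and 43.5 RPKM with LPS in *Ubqln1*-/- cells. The rise was 0.59 ± 0.08 and 0.68 ± 0.08 in WT cells (adjusted p = 8.16e-06 and 2.31e-06) and 0.50 ± 0.08 and 0.70 ± 0.08 in *Ubqln1*-/- cells, with no overlap. *Lig1*, the ligase, had 17.1, 18.8 and 21.6 RPKM at rest, 12.01, 13.3 and 15.4 RPKM with anti-IgM and 15.02, 15.96 and 19.9 RPKM with LPS in WT cells, and 16.2, 18.9 and 20.00 RPKM at rest, 12.6, 14.5 and 13.1 RPKM with anti-IgM and 16.8, 18.6 and 17.8 RPKM with LPS in *Ubqln1*-/- cells. It fell with anti-IgM by 0.50 ± 0.12 (adjusted p = 0.0012) and 0.45 ± 0.12 (adjusted p = 0.00256). With LPS its difference of -0.18 ± 0.12 in WT cells was not called (adjusted p = 0.185) but passed with the replicate number as a block (adjusted p = 0.0288) and without LPS replicate 3 (-0.31), and in *Ubqln1*-/- cells it was -0.05 ± 0.12.

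RPA, the heterotrimer that coats single-stranded DNA, showed a similar split. *Rpa1*, its large subunit, had 66.3, 58.7 and 63.7 RPKM at rest, 36.3, 34.8 and 39.3 RPKM with anti-IgM and 39.3, 34.6 and 41.5 RPKM with LPS in WT cells, and 68.8, 62.5 and 69.5 RPKM at rest, 37.3, 37.6 and 39.1 RPKM with anti-IgM and 40.3, 37.8 and 42.2 RPKM with LPS in *Ubqln1*-/- cells. It fell by 0.77 ± 0.07 (1.71-fold, adjusted p = 1e-07) and 0.71 ± 0.07 (adjusted p = 4.17e-07) in WT cells and by 0.82 ± 0.07 and 0.74 ± 0.07 in *Ubqln1*-/- cells. *Rpa2*, the subunit phosphorylated during S phase, had 22.7, 24.6 and 25.6 RPKM at rest, 30.8, 30.1 and 31.1 RPKM with anti-IgM and 26.9, 27.3 and 25.4 RPKM with LPS in WT cells, and 22.9, 23.3 and 24.5 RPKM at rest, 30.4, 28.1 and 30.8 RPKM with anti-IgM and 25.8, 27.02 and 29.01 RPKM with LPS in *Ubqln1*-/- cells. The anti-IgM libraries exceeded the resting ones, by 0.33 ± 0.06 (adjusted p = 0.000145) and 0.34 ± 0.06 (adjusted p = 0.000123), and with LPS only the *Ubqln1*-/- difference passed (0.21 ± 0.06, beside 0.12 ± 0.06 in WT cells). *Rpa3* fell with LPS by 0.53 ± 0.09 and 0.31 ± 0.09, and with anti-IgM by 0.37 ± 0.09 in WT cells, where *Ubqln1*-/- cells gave -0.01 ± 0.09.

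The stimuli were also compared directly. Between LPS and anti-IgM, 10 of 42 genes were higher with LPS and 5 lower in WT cells, where 17.4% and 15.0% of all tested genes were, and 9 were higher and 5 lower in *Ubqln1*-/- cells, where 16.8% and 14.5% of all genes were. Higher with LPS in both genotypes were *Orc1*, *Orc6*, *Mcm3*, *Mcm5*, *Lig1* and *Pold1*, and lower in both were *Mcm6*, *Pcna* and *Rfc1*. With LPS relative to anti-IgM, *Mcm6* fell by 0.60 ± 0.10 (adjusted p = 0.000108) and 0.68 ± 0.10 on the log2 scale in WT and *Ubqln1*-/- cells, and *Pcna* by 0.55 ± 0.08 (adjusted p = 2.25e-05) and 0.45 ± 0.08. *Orc1* was higher by 0.56 ± 0.15 (adjusted p = 0.00929) and 0.54 ± 0.15 (adjusted p = 0.0127), and *Orc6* by 0.39 ± 0.10 and 0.39 ± 0.10. *Rfc1* fell by 0.28 ± 0.07 and 0.26 ± 0.07 (1.21-fold in WT cells), below an anti-IgM level that was itself below rest. *Pold1* and *Lig1*, both lower than at rest with anti-IgM, were higher with LPS by 0.29 ± 0.09 and 0.32 ± 0.12 in WT cells and 0.29 ± 0.09 and 0.40 ± 0.12 in *Ubqln1*-/- cells.

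**Figure D4:**
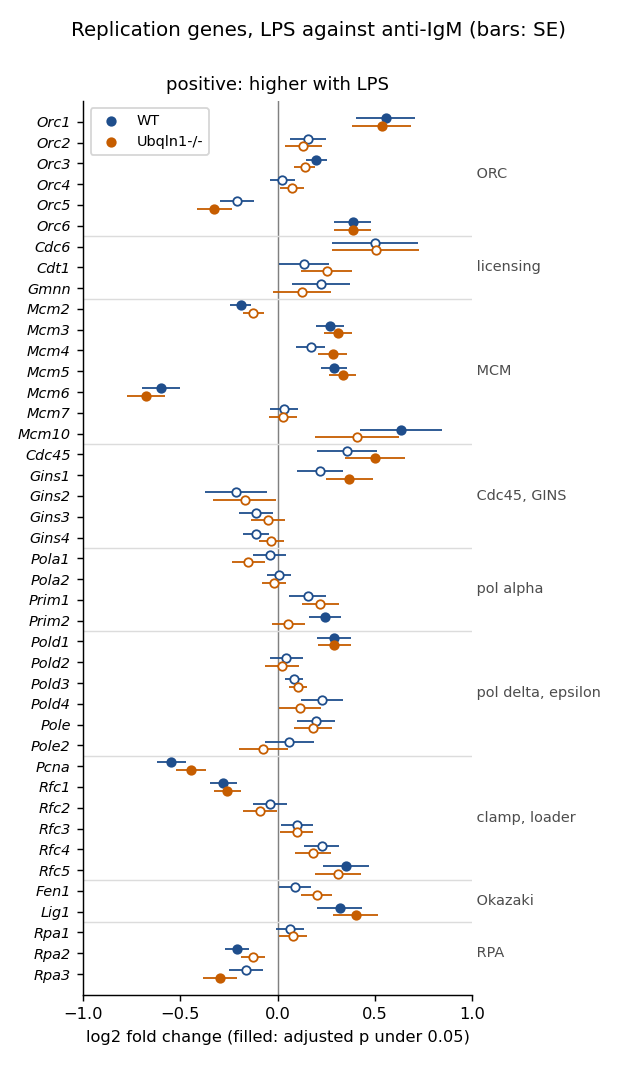
Log2 fold change of LPS against anti-IgM for the 42 genes, with WT in blue, *Ubqln1*-/- in orange, bars for the standard error and filled points for an adjusted p under 0.05. *Mcm6* and *Pcna* lie farthest to the left in both genotypes, and *Orc1*, *Orc6*, *Mcm3*, *Mcm5*, *Lig1* and *Pold1* lie to the right of zero with filled points in both.

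The remaining calls between the stimuli were made in 1 genotype each. Called in *Ubqln1*-/- cells alone, *Cdc45* (0.50 ± 0.16, adjusted p = 0.0208), *Gins1* (0.37 ± 0.12, adjusted p = 0.0269) and *Mcm4* (0.28 ± 0.07, adjusted p = 0.00748) were higher with LPS, and *Orc5* (-0.33 ± 0.09) and *Rpa3* (-0.29 ± 0.09) were lower. The WT values of these genes were 0.36 ± 0.15, 0.22 ± 0.12, 0.17 ± 0.07, -0.21 ± 0.09 and -0.16 ± 0.09. In WT cells *Mcm10* (0.64 ± 0.21), *Rfc5* (0.35 ± 0.12), *Prim2* (0.24 ± 0.08) and *Orc3* (0.20 ± 0.05) were higher with LPS, and *Rpa2* (-0.21 ± 0.06) and *Mcm2* (-0.19 ± 0.05) were lower, beside 0.41 ± 0.21, 0.31 ± 0.12, 0.05 ± 0.09, 0.14 ± 0.05, -0.13 ± 0.06 and -0.12 ± 0.05 in *Ubqln1*-/- cells. Whether these differences differed between the genotypes was not tested.

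Among these, the calls of *Mcm4* and *Orc3* were kept without any 1 library of the groups compared. The *Ubqln1*-/- call of *Cdc45* was lost without anti-IgM replicate 1 (0.42), anti-IgM replicate 3 (0.45) or LPS replicate 2 (0.37). That of *Gins1* was lost without anti-IgM replicate 1 (0.33) or 2 (0.35) or LPS replicate 2 (0.35) or 3 (0.36), with DESeq2 (0.37), within the samples compared (0.36) and without a filter on low counts (0.36). *Orc5* lost it without anti-IgM replicate 2 (-0.28) or LPS replicate 1 (-0.26), and *Rpa3* without anti-IgM replicate 1 (-0.29) or 2 (-0.26) or LPS replicate 2 (-0.26). In WT cells, LPS replicate 3 was needed for the calls of *Mcm2* (-0.15 without it), *Rpa2* (-0.18), *Mcm10* (0.49), *Prim2* (0.21) and *Rfc5* (0.27). *Mcm10* also lost its call without anti-IgM replicate 1 (0.52) or 2 (0.61), and *Prim2* without anti-IgM replicate 2 (0.24) or 3 (0.20) or LPS replicate 1 (0.21), within the samples compared (0.24) and without a filter on low counts (0.25). *Rfc5* lost its call without anti-IgM replicate 2 (0.27) or 3 (0.32) or LPS replicate 1 (0.33) and within the samples compared (0.35).

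The counts between the stimuli moved with the libraries used. Without WT anti-IgM replicate 2 or LPS replicate 3, 5 or 6 genes were higher with LPS in WT cells. Without *Ubqln1*-/- anti-IgM replicate 1 or LPS replicate 2 there were 5 in *Ubqln1*-/- cells, without *Ubqln1*-/- anti-IgM replicate 2 there were 3 lower genes, and with the replicate number as a block 15 genes were higher in *Ubqln1*-/- cells. The genes that the block added there were *Cdc6* (adjusted p = 0.0497), *Cdt1* (0.0004), *Orc3*, *Prim1*, *Rfc5* and *Fen1*, and in WT cells it added *Cdc6* (adjusted p = 0.0478), *Cdt1* (0.0306), *Mcm4*, *Cdc45* and *Pole* as higher and *Orc5* as lower with LPS. The WT call of *Lig1* was lost without anti-IgM replicate 1 (0.24), anti-IgM replicate 2 (0.31) or LPS replicate 3 (0.19), and its *Ubqln1*-/- call without anti-IgM replicate 1 (0.36), anti-IgM replicate 3 (0.38) or LPS replicate 2 (0.36). That of *Pold1* was lost without anti-IgM replicate 2 (0.27) or LPS replicate 1 (0.20) in WT cells, and without LPS replicate 1 (0.27) or LPS replicate 3 (0.26) in *Ubqln1*-/- cells. For *Orc1*, the *Ubqln1*-/- call was lost without anti-IgM replicate 1 (0.41) or LPS replicate 2 (0.44). Within the samples compared, the WT calls of *Lig1* (0.32) and *Pold1* (0.29) and the *Ubqln1*-/- call of *Orc1* (0.52) were also lost.

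No replication gene was called different between *Ubqln1*-/- and WT cells. The number called by edgeR was 0 of 42 at rest, 0 of 42 after anti-IgM and 0 of 42 after LPS, where 0.0565%, 0.0989% and 0.0424% of all tested genes were called, and 0 of 42 in the difference between the genotypes' responses to either stimulus, where 0% of all genes were called. At an unadjusted p under 0.05 there were 2, 2 and 0 of the 42 genes and 1 and 1 in the differences of responses, beside 597, 728, 557, 140 and 220 of all tested genes. limma, DESeq2 and the fit with the replicate number as a block called 0 of the 42 as well. The log2 differences ran from -0.13 to 0.43 at rest, from -0.11 to 0.28 with anti-IgM and from -0.12 to 0.19 with LPS, with medians of 0.01, 0.05 and 0.05. For 41 of the 42 genes the 95% interval of the difference lay within 1.5-fold in either direction in each condition, and the exception was *Cdc6*, at 0.43 at rest (-0.07 to 0.93). The differences of responses were less closely bounded. Within 1.5-fold lay 38 of the 42 intervals with anti-IgM, all but *Cdc6*, *Gmnn*, *Rpa3* and *Mcm10*. With LPS there were 37, all but *Cdc45*, *Orc1*, *Prim2*, *Cdc6* and *Mcm10*.

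The smallest p at rest belonged to *Prim2*, with 10.00, 9.89 and 9.31 RPKM in *Ubqln1*-/- and 8.02, 7.66 and 8.41 RPKM in WT libraries, which did not overlap (0.28 ± 0.08, interval 0.09 to 0.46, edgeR adjusted p = 0.649). With anti-IgM it belonged to *Pola1*, the catalytic subunit of polymerase alpha, with 5.58, 5.55 and 5.01 RPKM in *Ubqln1*-/- and 4.19, 4.46 and 4.66 RPKM in WT libraries (0.28 ± 0.08, edgeR adjusted p = 0.48). *Pola1* also had the smallest p with LPS, with 4.97, 5.00 and 4.57 RPKM in *Ubqln1*-/- and 4.25, 4.24 and 4.45 RPKM in WT libraries (0.17 ± 0.08, edgeR adjusted p = 1), and at rest it had 4.97, 5.29 and 4.52 RPKM in *Ubqln1*-/- and 4.70, 3.75 and 4.49 RPKM in WT libraries. The *Ubqln1*-/- mean of *Pola1* was above the WT mean in all 3 conditions, and none of these differences passed the adjusted test.

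For the responses, *Rpa3* had the smallest p with anti-IgM: it went from 16.1, 15.02 and 14.7 to 12.1, 12.2 and 11.1 RPKM in WT cells and from 14.8, 14.5 and 13.98 to 14.4, 14.9 and 13.4 RPKM in *Ubqln1*-/- cells. The difference of 0.35 ± 0.12 (interval 0.08 to 0.62) had an edgeR adjusted p of 1. *Prim2* had the smallest p with LPS, at -0.33 ± 0.12 (interval -0.59 to -0.07, edgeR adjusted p = 1). Of the 42 genes, 25 stood higher in *Ubqln1*-/- cells at rest, 27 with anti-IgM and 35 with LPS, which are descriptions since the genes share their libraries. The plasma cell marker *Jchain* was at 158, 190.0 and 390.0 CPM in resting WT and 116, 143 and 133 CPM in resting *Ubqln1*-/- cells. The 4 plasma cell markers summed to 354 to 585 CPM at rest in WT and 284 to 312 CPM in *Ubqln1*-/- cells, to 335 to 544 and 279 to 298 CPM with anti-IgM, and to 219.5 to 420 and 184.5 to 198.5 CPM with LPS. Their part in the genotype comparison was not tested.

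**Figure D5:**
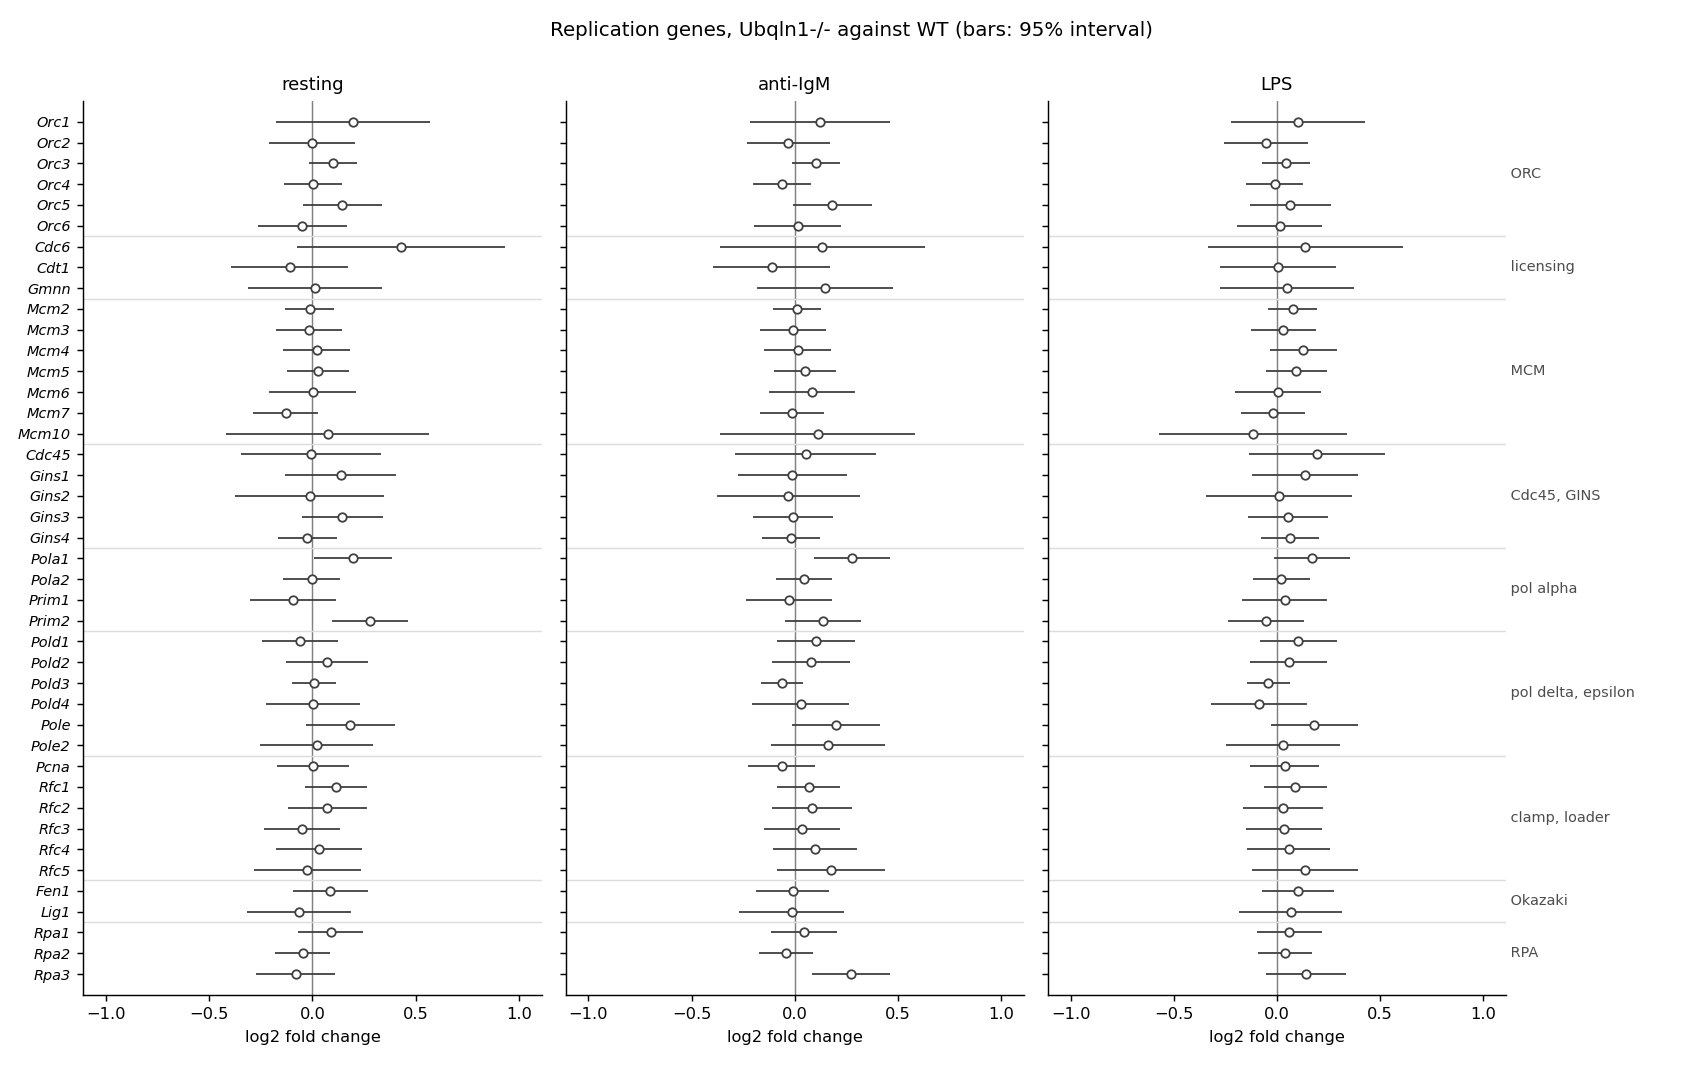
Log2 difference of each of the 42 genes between *Ubqln1*-/- and WT cells at rest, with anti-IgM and with LPS, with bars for the 95% interval. Open points mark an adjusted p of 0.05 or more, which holds for all, and *Cdc6* has the widest interval in each panel.

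Part of the spread among replicates was shared by many of these genes. In WT cells, replicate 3 was the highest of its group in all 3 conditions for 11 of the 42 genes, among them *Mcm3*, *Mcm4*, *Mcm5*, *Cdc6*, *Cdc45*, *Prim1* and *Pole*, beside 10.5% of all tested genes. In *Ubqln1*-/- cells replicate 2 was so for 14 of the 42, among them *Orc1*, *Orc2*, *Mcm3*, *Mcm4*, *Mcm5* and *Mcm10*, beside 10.8% of all tested genes. *Mcm10*, which varied most between replicates, had 1.37, 1.44 and 1.90 RPKM in resting WT and 1.82, 2.04 and 1.10 RPKM in resting *Ubqln1*-/- libraries. The cycling marker *Mki67* had 116, 86.1 and 120.3 CPM and 114, 136 and 75.5 CPM in those libraries and *Top2a* 97.4, 83.8 and 98.97 CPM and 108, 121 and 79.99 CPM. Whether a share of cycling cells lay behind this pattern was not tested.

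Other genes of S phase entry were counted in lists that hold none of the 42. The shares of all tested genes to set beside the WT counts are again 32.4% higher and 32.2% lower with anti-IgM and 31.2% and 30.1% with LPS. Of 28 firing and fork accessory genes, 10 rose and 7 fell with anti-IgM (35.7% of the list higher) and 12 rose and 6 fell with LPS in WT cells (42.9% and 21.4%). The histone-fold subunit *Pole3* of polymerase epsilon rose by 0.73 ± 0.09 and 0.74 ± 0.09 and the topoisomerase *Top1* by 0.71 ± 0.08 and 0.53 ± 0.08, while *Cdc7*, the kinase that fires origins, fell (-0.52 ± 0.09 and -0.46 ± 0.09). Of 16 genes of nucleotide supply and fork chromatin, 3 rose and 8 fell with anti-IgM (18.8% and 50.0%) and 5 rose and 5 fell with LPS (31.2% each). The histone chaperone *Nasp* rose by 0.65 ± 0.06 and 0.67 ± 0.06, and the deoxycytidine kinase *Dck* was at -1.62 ± 0.13 and -1.42 ± 0.12, a fall in both.

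Regulators of the E2F program were counted as well, beside the same 32.4% and 32.2% of all genes with anti-IgM and 31.2% and 30.1% with LPS. Of 17 E2F, DP, pocket protein and LIN genes, 5 rose and 8 fell with anti-IgM (29.4% and 47.1%) and 6 rose and 8 fell with LPS in WT cells (35.3% and 47.1%). *E2f2* was lower, at -2.81 ± 0.23 with anti-IgM and -0.67 ± 0.21 with LPS on the log2 scale, and the pocket protein gene *Rbl2*, a repressor of G0 cells, at -1.26 ± 0.10 and -1.15 ± 0.10. Of the DP genes, which encode the DNA-binding partners of E2F proteins, *Tfdp1* rose by 1.13 ± 0.14 and 1.22 ± 0.14. *Tfdp2* went the other way, at -0.80 ± 0.19 with anti-IgM and -1.40 ± 0.19 with LPS in WT cells. Of 20 genes of S phase entry and mitosis, 2 rose and 3 fell with anti-IgM (10.0% and 15.0%) and 3 rose and 6 fell with LPS (15.0% and 30.0%). The phosphatase gene *Cdc25a* rose by 0.66 ± 0.11 and 0.73 ± 0.11 and *Ccne2* by 0.52 ± 0.15 and 0.56 ± 0.15. The cyclin gene *Ccne1* (-1.29 ± 0.12 and -1.08 ± 0.12), *Aurkb* (-1.08 ± 0.16 and -0.92 ± 0.16) and *Cdk2* (-0.79 ± 0.09 and -0.43 ± 0.09) fell with both stimuli. With LPS *Ccnb2* (-0.70 ± 0.23) and *Cenpe* (-0.89 ± 0.24) also fell. *Birc5* rose with LPS in WT cells (0.41 ± 0.17, edgeR adjusted p = 0.045) and was not called in *Ubqln1*-/- cells (0.18 ± 0.17, edgeR adjusted p = 0.382). The cycling markers *Mki67* (-0.50 ± 0.25 and -0.29 ± 0.25) and *Cdk1* (-0.14 ± 0.21 and 0.08 ± 0.21) were not called.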

How the data were processed

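Polyadenylated RNA of the 18 libraries (TruSeq RNA v2, which does not mark strand) was sequenced as single-end 50 base reads on a HiSeq2500. The authors aligned the reads with GSNAP to GRCm38 and deposited, for each library, an exonic read count for every Entrez gene, the exonic width in bases and an RPKM. Neither the annotation release nor the program that counted reads is given in the sources used here. The deposited RPKM was not used: it divides by a total larger than the sum of the counts. RPKM here is the count divided by the deposited width and by the TMM-scaled library total, with TMM factors of 0.958 to 1.04. Symbols came from RefSeq by Entrez number (89.1% of genes matched). Trac and Hbb-bt were not matched and were left out of the marker lists.

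Counts were tested with edgeR 4.0.16 in R 4.3.3 (filterByExpr, TMM, glmQLFit and glmQLFTest), all 18 libraries in 1 fit with a term for each group, 12 residual degrees of freedom and a biological coefficient of variation of 10.1%. A gene was called at a Benjamini-Hochberg adjusted p under 0.05 over all 14161 tested genes. Errors beside log2 fold changes are standard errors, and intervals are 95%. The study used limma (R 3.2.2 in the submitters' processing notes), which was run as an alternative (3.58.1, voom) with DESeq2 1.42.0, other filters and scalings, a threshold on fold change, the replicate block and leaving out each library. The fit was tested on simulated data for WT anti-IgM against rest, over 14161 genes: it found 12.2% of 49 genes changed by 0.3 on the log2 scale, 54% of 50 changed by 0.5, 70% of 50 changed by 1 and 100% of 50 changed by 2. In that simulation 13788 further genes were left unchanged, whereas in the data 32.4% of all tested genes rose and 32.2% fell. The adjusted p threshold is stricter where few genes change, so these shares do not give how many real changes were found. Counting error is smallest in the deepest libraries (41072854 counts) and largest in the shallowest (15368941, median 23257531).

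Replicates carry the numbers 2 and 3 in the labels, and the library without a number was taken as 1. Deviations from the group means correlated between same-numbered libraries of a genotype in all 18 pairs (0.228 to 0.516), so libraries with the same number may be paired within a genotype. The main fit has no term for the numbers. Each call of the 42 genes that the replicate block changed is given in the report. Between genotypes the same-numbered pairs stood at 0.298, 0.0826 and 0.197 at rest, at 0.388, 0.211 and 0.205 with anti-IgM and at 0.319, 0.315 and 0.253 with LPS. The replicate block used the same terms for both genotypes. It therefore also joined same-numbered WT and *Ubqln1*-/- libraries in every condition, and it could not remove replicate differences that ran differently in the genotypes. The blocked fit called 0 of the 42 genes in each comparison between genotypes.

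Genes given with every library's value were, for each stimulus, up to 8 called risers and 4 called fallers of largest change without overlap in both genotypes, up to 4 genes in each direction between LPS and anti-IgM, those of smallest p between genotypes, and *Mcm2* to *Mcm7*, *Cdc6*, *Cdt1*, *Gmnn* and *Pcna*. *Mki67*, *Top2a* and *Cdk1* were added as usual cycling markers, and *Prim2* and *Rpa3* are described in every group under the rule on genotype. The members, lists and rules were chosen with earlier results of these data known.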

Additional observations from a re-analysis of the deposited data

How the results depend on the processing

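Of the alternative values of the counts and medians over the 42 genes, 386 kept their direction and size, 18 counts fell and 1 rose by more than 1.5 times, and 5 medians moved. Requiring a log2 change over 1 as well left 2 genes higher and 2 lower with anti-IgM in WT cells, 1 and 1 in *Ubqln1*-/- cells, 2 and 1 with LPS in WT cells, 1 and 1 in *Ubqln1*-/- cells, and 0 in either direction between LPS and anti-IgM. With the replicate number as a block, 15 in place of 9 genes were higher with LPS than with anti-IgM in *Ubqln1*-/- cells, and apart from the calls given in the report the block changed no call of a named gene against rest. Within the samples compared, 6 in place of 10 were higher with LPS in WT cells.

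Leaving out 1 library at a time, the genes higher with LPS than with anti-IgM numbered 5 to 12 in WT cells and 5 to 9 in *Ubqln1*-/- cells, and those lower 3 to 5 in *Ubqln1*-/- cells. The median log2 change over the 42 genes ran from 0.0935 to 0.159 between LPS and anti-IgM and from -0.0185 to 0.0671 between LPS and rest in WT cells, the latter highest without resting replicate 3. Changes without a call crossed zero for *Cdc6* (-0.27 to 0.11 with anti-IgM in WT, -0.03 to 0.29 with LPS in *Ubqln1*-/- cells), *Cdt1* (-0.191 to 0.0623 in WT and -0.0755 to 0.163 in *Ubqln1*-/- cells with LPS), *Mcm6* (-0.18 to 0.0005 with LPS in WT cells), *Rpa3* (-0.0381 to 0.041 with anti-IgM in *Ubqln1*-/- cells, and 0.0178 without a filter on low counts), *Lig1* (-0.127 to 0.0151 with LPS in *Ubqln1*-/- cells) and *Mcm7* (-0.031 to 0.0627 with anti-IgM and -0.0542 to 0.0949 with LPS in *Ubqln1*-/- cells). The cause was not tested. No gene of the 42 was called between genotypes under any of 174 settings and comparisons. Genes such as *Cdc6*, with 35 to 139 reads, limit what small changes can be seen.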
